A study of Mus musculus with 27 samples.

Results

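The comparison described here asks what the loss of 1 Gne copy did to gene expression in the retina of mice that lack complement component C3. It covers 13 of the 27 libraries of the series: 6 from Gne+/- C3-/- mice and 7 from Gne+/+ C3-/- mice, called C3-/- below, selected by the genotype in the sample titles. All 13 mice lacked both C3 copies and were 9 months old, so the groups differ by label in the Gne genotype. The remaining 14 libraries came from 7 wildtype and 7 Gne+/- mice with intact C3 and serve as a second background. Each library was made from 100 ng total RNA of a whole-mounted retina by a 3′ tag protocol, in which reads come from the 3′ end of polyadenylated transcripts. Run 1 held 4 C3-/- mice (mice 1, 2, 5 and 6) and 4 Gne+/- C3-/- mice (mice 3, 4, 5 and 6), and run 2 held 3 C3-/- mice (mice 7, 8 and 9) and 2 Gne+/- C3-/- mice (mice 7 and 8). The Gne allele is a heterozygous knockout, so a functional copy remains, and the measure is RNA and not sialic acid.

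Sialic acids are acidic sugars at the outer end of the glycan chains on cell surface proteins and lipids. Gne encodes the bifunctional epimerase and kinase that converts UDP-N-acetylglucosamine into the precursor of sialic acid, the rate-limiting step of its synthesis. On neurons, terminal sialic acid engages inhibitory Siglec receptors on microglia and helps to restrain complement at the cell surface. C3 is the step on which the complement pathways converge, and its fragments tag synapses and cells for removal by microglia. The series as a whole addresses whether retinal changes in Gne+/- mice depend on complement, and the C3-/- background is where that arm is removed.

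Total counts ranged from 13.7 to 34.2 M in C3-/- and from 14.2 to 22.8 M in Gne+/- C3-/- libraries (M, the metric prefix mega), with 16771 to 22938 genes detected. The sequencing run separated the libraries: 10354 of 17409 genes tested (59.5%) passed an adjusted p of 0.05 between the runs, so the run was a term of the fit. Sex is not given in the labels. The mean level of 4 Y-linked genes was 61.4 to 148 CPM (reads of a gene scaled to a common library total) in 8 of the 13 libraries and 0.138 to 0.678 CPM in the other 5. The 8 libraries were 4 of 4 C3-/- and 2 of 4 Gne+/- C3-/- mice of run 1, and 0 of 3 C3-/- and 2 of 2 Gne+/- C3-/- mice of run 2. Within the Gne+/- C3-/- mice of run 1, mice 3 and 4 had Y-linked RNA and mice 5 and 6 did not. These pairs were also apart in Prkca, the rod bipolar cell kinase. It was at 829.4 and 855 CPM in mice 3 and 4 and at 1212 and 1479 CPM in mice 5 and 6. Prkca is a single example, and the share of all genes that separates these pairs was not counted. The fit was therefore repeated without each pair, and Gne was the only gene called each time, at -1.63 (log2) without mice 3 and 4 and -1.60 without mice 5 and 6.

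Gne lies on the minus strand of mouse chromosome 4 (GRCm38, chr4:44034075-44084177), and RefSeq (GRCm38.p6) annotates 2 transcription starts for it. The 250 bases before each start are shown because Gne is the gene on which the comparison turns and because 3′ tags sum the transcripts of both starts. Both are given 5′ to 3′ on the minus strand in lower case, with each CG dinucleotide in capitals.
Gne, distal start, chr4:44084178-44084427: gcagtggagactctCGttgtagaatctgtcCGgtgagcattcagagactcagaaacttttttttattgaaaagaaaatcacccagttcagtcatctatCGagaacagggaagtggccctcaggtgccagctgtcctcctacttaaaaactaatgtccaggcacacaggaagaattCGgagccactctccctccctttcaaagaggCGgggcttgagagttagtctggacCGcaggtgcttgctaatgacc
Gne, proximal start, chr4:44072718-44072967: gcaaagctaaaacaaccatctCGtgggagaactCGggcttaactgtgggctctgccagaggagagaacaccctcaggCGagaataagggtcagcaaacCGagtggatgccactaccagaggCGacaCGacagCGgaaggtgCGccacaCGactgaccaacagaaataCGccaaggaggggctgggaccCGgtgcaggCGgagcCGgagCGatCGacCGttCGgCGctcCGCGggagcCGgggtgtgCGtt
The distal window holds 6 CG dinucleotides with 48.8% G and C, and 50.4% of 32851 RefSeq promoter windows of the same length hold as many or more. The proximal window holds 22 CG dinucleotides with 62.0% G and C, a number that 14.8% of promoter windows reach. The motif TATAAA, searched on both strands, is in neither window and is in 12.4% of all promoter windows.

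Gne RNA was lower in every Gne+/- C3-/- library than in every C3-/- library of the same run. In run 1, it was at 109.6, 110.5, 135.6 and 110.9 CPM in the C3-/- mice and at 42.06, 40.08, 32.04 and 44.04 CPM in the Gne+/- C3-/- mice. In run 2, it was at 43.02, 45.02 and 45.83 CPM in the C3-/- mice and at 13.01 and 14.12 CPM in the Gne+/- C3-/- mice. The groups did not overlap in either run. Across runs their ranges met, at 43.02 to 45.83 CPM in C3-/- of run 2 and 32.04 to 44.04 CPM in Gne+/- C3-/- of run 1. The log2 fold change was -1.62 (SE 0.138, 95% interval -1.90 to -1.34, adjusted p = 4.46e-09, edgeR's quasi-likelihood test, Benjamini-Hochberg adjustment), which leaves 32.5% of the C3-/- level. It was -1.54 within run 1 and -1.71 within run 2. An exact two-sided permutation test of Gne with labels exchanged within each run gave p = 0.00143, the smallest value that its 700 arrangements allow. Without the run term, the fold change was -1.47 and the adjusted p was 1. Mice with intact C3 gave a Gne fold change of -1.54 (log2, SE 0.130) for Gne+/- against wildtype. The difference between the 2 effects was -0.08 (log2, SE 0.184, unadjusted p = 0.67, edgeR).

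**Figure D1:**
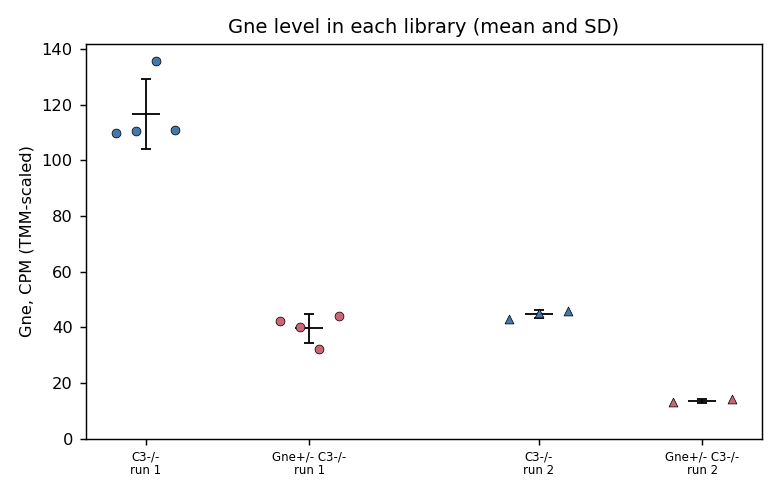
Gne level in CPM in each of the 13 libraries, by genotype and sequencing run, with the mean and SD as bars (n = 4, 4, 3 and 2 from left to right). The groups are apart in each run, at 109.6 to 135.6 against 32.04 to 44.04 CPM in run 1 and 43.02 to 45.83 against 13.01 to 14.12 CPM in run 2.

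C3 was at or near 0 in both groups, which share the C3-/- genotype. Its mean was 1.09 ± 1.19 CPM (SD, n = 7) in C3-/- and 0.909 ± 0.731 CPM (SD, n = 6) in Gne+/- C3-/-, with a difference of -0.56 (log2, SE 0.669). For reference, C3 was at 162 ± 45.9 CPM (SD, n = 5) in wildtype mice of run 1 and at 72.6 ± 26.5 CPM (SD, n = 2) in those of run 2. Which part of C3 the knockout removes is not given in the sources used here, so these counts check the labels only as far as the 3′ end reports the allele.

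Beyond Gne, no gene passed the threshold. Gne was 1 of 17409 genes tested (0.00574%), with 0 genes higher, and the next smallest adjusted p was 1. DESeq2 and limma-voom with quality weights each called 1 gene, Gne. At an unadjusted p under 0.05, 235 genes stood out (1.35% of those tested), 124 higher (0.712%) and 111 lower (0.638%). A uniform distribution of p-values would give 870 genes, so there were fewer small p-values than that. Of 114 genes tested within 5 Mb of Gne on chromosome 4, 60 were higher, the median log2 fold change was 0.01 and 0 passed the threshold. The lowest p among them was that of Kif24, a kinesin of the centriole, at 0.79 (log2, SE 0.317, unadjusted p = 0.0183, edgeR).

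**Figure D2:**
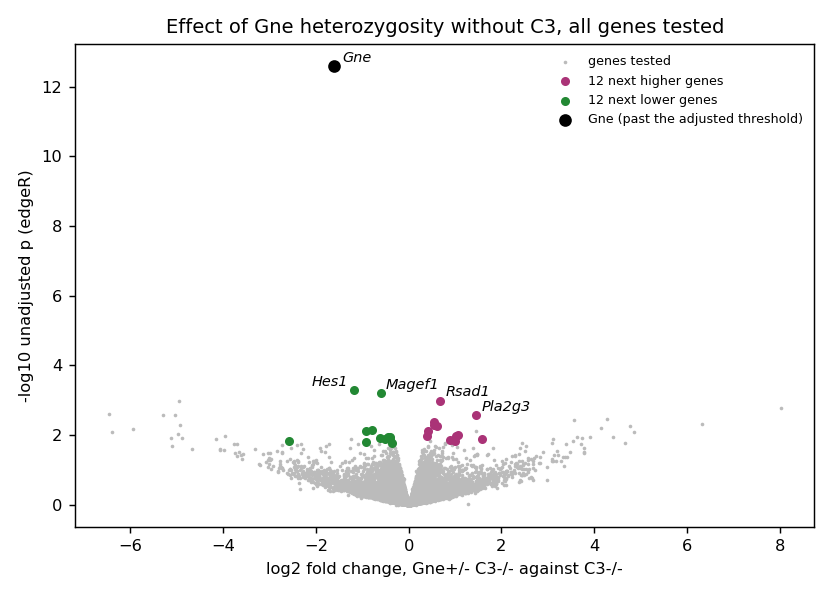
Log2 fold change (x axis) and -log10 of the unadjusted p (y axis, edgeR) of the 17409 genes tested, Gne+/- C3-/- against C3-/-. Gne stands alone at the top (log2 fold change -1.62, unadjusted p = 2.56e-13 from edgeR), and the 24 next named genes (12 higher, 12 lower) have p from 0.000519 to 0.0169.

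The libraries left different room for change by expression level. For 9344 genes with a mean of at least 10 CPM, the median SE of the log2 fold change was 0.195, and the 95% interval of 8789 (94.1%) lay within a 2-fold change in either direction. For 5308 genes from 1 to 10 CPM, the median SE was 0.591 and 980 (18.5%) had such an interval. For 2757 genes under 1 CPM, the median SE was 1.27 and 6 (0.218%) did. Over all genes tested, 9775 (56.1%) had an interval within 2-fold.

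Bipolar cells, the interneurons that pass photoreceptor signals to ganglion cells, were measured with narrow intervals, and none of their markers tested passed the threshold. In whole retina, fewer cells of a type and less RNA per cell cannot be told apart. Of 18 rod and ON bipolar genes tested, 6 were higher and 12 lower with a median log2 fold change of -0.04, against 8529 higher, 8880 lower and a median of -0.01 over all genes tested. All 18 had a 95% interval within a 2-fold change, and their fold changes ran from -0.26 to 0.16. Prkca was at 1141, 1115, 1175 and 1139 CPM in run 1 and at 1336, 1648 and 1463 CPM in run 2 of the C3-/- mice. In the Gne+/- C3-/- mice it was at 829.4, 855, 1212 and 1479 CPM in run 1 and at 1419 and 1542 CPM in run 2. The groups overlapped in both runs, with a fold change of -0.03 (log2, 95% interval -0.28 to 0.23). Trpm1, the cation channel that opens in ON bipolar cells at light onset, had a fold change of -0.03 (log2, interval -0.34 to 0.27). Grm6, the glutamate receptor upstream of that channel, had -0.10 (log2, interval -0.42 to 0.22), with 0.11 in run 1 and -0.42 in run 2.

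Cone and OFF bipolar genes gave a similar picture of 10 higher and 9 lower of 19 tested, with a median of 0.00. The intervals of 18 of these 19 lay within 2-fold. Grik1, the kainate receptor subunit of OFF bipolar cells, had -0.01 (log2, interval -0.29 to 0.27). In mice with intact C3, Gne+/- against wildtype, the list medians were -0.05 for rod and ON bipolar genes and -0.18 for cone and OFF bipolar genes. The log2 fold change there was -0.02 for Prkca, -0.27 for Trpm1, -0.04 for Grm6 and -0.29 for Grik1. The difference between the backgrounds had unadjusted p-values of 0.955, 0.258, 0.789 and 0.143 for these 4 genes (edgeR, adjusted p = 1 for each). Of 20 genes of the photoreceptor and ribbon synapse, 7 were higher and 13 lower with a median of -0.02, and 19 had intervals within 2-fold.

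Photoreceptor genes did not pass the threshold in either direction. Of 19 rod genes, 6 were higher and 13 lower with a median of -0.09, and 16 intervals lay within 2-fold. Of 15 cone genes, 10 were higher and 5 lower with a median of 0.04. Arr3, cone arrestin, had 0.12 (log2, interval -0.17 to 0.40). Amacrine genes (15 tested, median -0.01), horizontal cell genes (6 tested, median -0.05) and ganglion cell genes (15 tested, median 0.10) held 0 members at an unadjusted p under 0.05.

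Of the genes of sialic acid metabolism, Gne alone passed the threshold. The synthesis and activation list had 7 members tested, 3 higher and 4 lower. Cmas, which activates sialic acid to CMP-sialic acid in the nucleus, was at 74.2 to 108.5 CPM in C3-/- and 76.22 to 117.8 CPM in Gne+/- C3-/- mice of run 1. Its fold change was 0.01 (log2, interval -0.30 to 0.33). Slc35a1, the transporter that carries CMP-sialic acid into the Golgi, was at 87.83 to 100.7 CPM in the C3-/- mice of run 1. In the Gne+/- C3-/- mice of run 1 it was at 110.1 and 90.66 CPM in mice 3 and 4 and at 54.65 and 56.31 CPM in mice 5 and 6. Mice 5 and 6 lay below all C3-/- mice of that run, and mice 3 and 4 did not. Its fold change was -0.21 (log2, SE 0.184), and what the split between the pairs adds to this value was not tested. Slc17a5, which exports sialic acid from lysosomes, had -0.28 (log2, SE 0.290). Cmah, which converts the N-acetyl form of sialic acid to the N-glycolyl form in mice, had 0.26 (log2, SE 0.265). Npl, the lyase that degrades sialic acid, had -0.33 (log2, SE 0.471). Nans, the synthase that follows Gne, could not be assessed: 68.5% of its span is overlapped by other genes, where reads were not counted, and it was listed at 0 in 12 of 13 libraries.

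The sialyltransferases, which place sialic acid on glycans, held 1 member at an unadjusted p under 0.05. Of 13 transferases for alpha-2,3 and alpha-2,6 linkages, 7 were higher and 6 lower with a median of 0.02. St3gal5, the GM3 synthase at the start of complex ganglioside synthesis, was at 43.31, 38.74, 39.95 and 54.53 CPM in run 1 and at 29.62, 36.29 and 39.76 CPM in run 2 of the C3-/- mice. In Gne+/- C3-/- it was at 34.85, 36.97, 39.91 and 36.48 CPM in run 1 and at 17.03 and 25.12 CPM in run 2. The groups overlapped in run 1 and were apart in run 2. The fold change was -0.45 (log2, SE 0.168, unadjusted p = 0.0115, adjusted p = 1, edgeR), with -0.23 in run 1 and -0.74 in run 2. It was -0.21 in Gne+/- against wildtype. St3gal4 had 0.02 (log2, SE 0.166) and St3gal6 had -0.03 (log2, SE 0.199), which both add alpha-2,3-linked sialic acid to glycoproteins. Of 5 alpha-2,8 transferases, which build polysialic acid and disialogangliosides, 3 were higher and 2 lower. St8sia2, a polysialic acid synthase, had 0.46 (log2, SE 0.300), and St8sia1, the GD3 synthase, had -0.20 (log2, SE 0.202).

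Genes that remove or recognise sialic acid did not pass the threshold. Neu1, the lysosomal sialidase, had -0.12 (log2, interval -0.56 to 0.33), and 3 of the 5 sialidase and esterase genes were higher. Of 7 Siglec receptor and signalling genes tested, 1 was higher and 6 lower with a median of -0.26, and 1 of the 7 had an interval within 2-fold. The median was 0.01 in run 1 and 0.12 in run 2, against the pooled sign. Cd33, a Siglec of microglia, had -0.95 (log2, SE 1.20), with 0.21 in run 1 and -3.11 in run 2. Of 11 genes of the hexosamine pathway, which makes the UDP-N-acetylglucosamine that Gne uses, 5 were higher and 6 lower with a median near 0. Gfpt1, the enzyme that opens that pathway, had -0.11 (log2, SE 0.137).

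**Figure D3:**
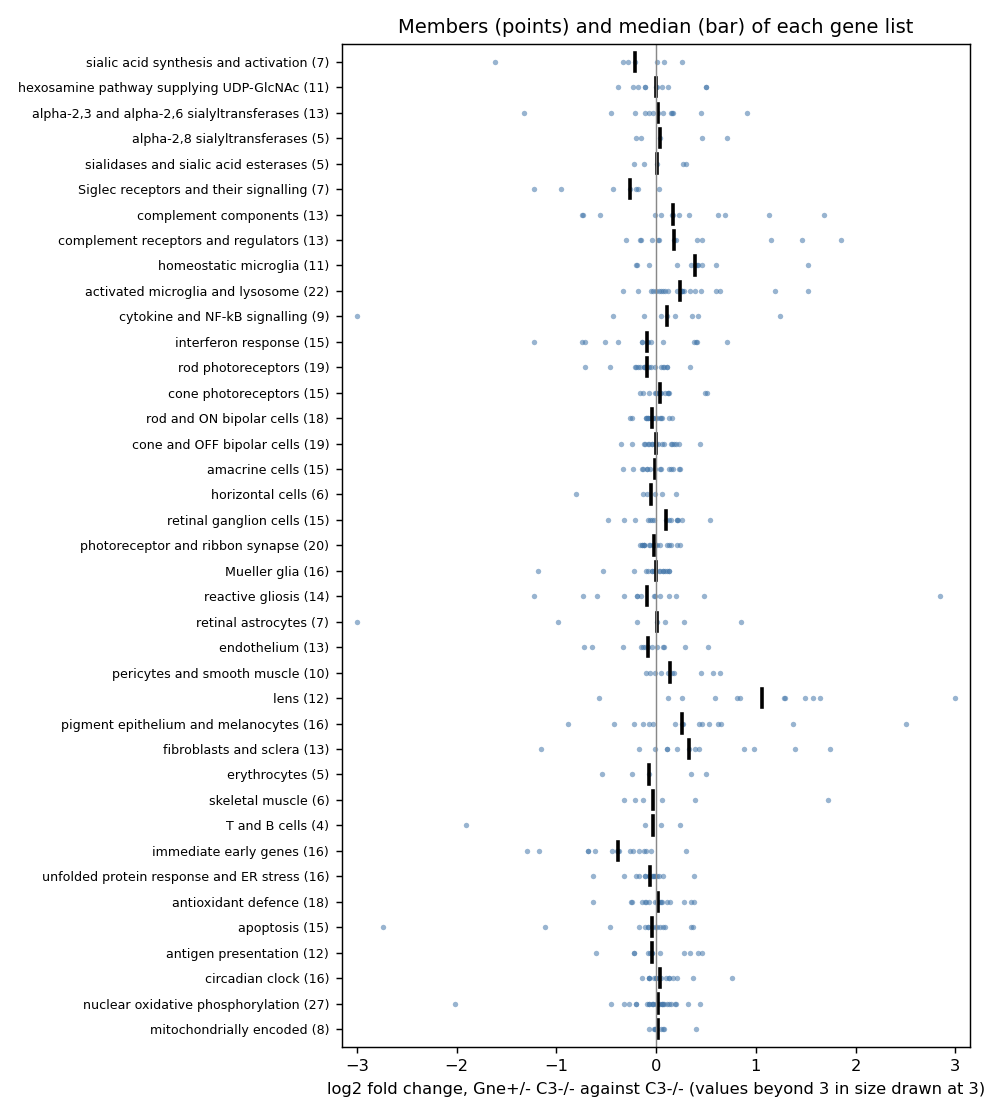
Log2 fold change of the members (points) and their median (bar) for the gene lists other than the Y-linked genes, Gne+/- C3-/- against C3-/-, with the number tested in brackets and values beyond 3 in size drawn at 3. Bipolar, cone and synapse lists cluster near 0 (medians -0.04 to 0.04), and the lens list has the highest median, 1.06.

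No microglia or complement gene tested passed the threshold. The counts of homeostatic microglia genes and complement components were low in whole retina, and few of their intervals lay within 2-fold. Reads on spans shared by several genes were not counted. P2ry12, P2ry13 and Gpr34, overlapped over 100% of their span, were at 0 and not tested. Among untested complement components, Cfb was overlapped over 99.4% of its span, while C6, C7 and C9 had at most 0.137%. Summed levels therefore leave out some markers. Of 11 homeostatic microglia genes, 8 were higher and 3 lower with a median of 0.39, and 2 intervals lay within 2-fold. Their summed level ran from 35.6 to 43.4 CPM in C3-/- and from 37.5 to 58.1 CPM in Gne+/- C3-/- mice of run 1, and from 28.0 to 34.0 against 35.5 to 38.8 CPM in run 2. Cx3cr1, the fractalkine receptor of microglia, was at 7.172, 5.512, 8.933 and 9.227 CPM in C3-/- and at 14.73, 11.06, 13.34 and 13.48 CPM in Gne+/- C3-/- mice of run 1. In run 2 it was at 5.163, 8.728 and 9.674 CPM in C3-/- and at 8.929 and 4.915 CPM in Gne+/- C3-/-. The groups were apart in run 1 and overlapped in run 2. The pooled fold change of Cx3cr1 was 0.41 (log2, SE 0.313, unadjusted p = 0.2, edgeR), and 57.4% of its span is overlapped by other genes. Csf1r, the colony stimulating factor receptor, had 0.21 (log2, interval -0.54 to 0.95) and Tmem119, a marker of resident microglia, had -0.19 (log2, interval -1.57 to 1.19). Of 22 genes of activated microglia and lysosomes, many of which other retinal cells also express, 17 were higher and 5 lower with a median of 0.24. Of these 22, 11 had an interval within 2-fold and 0 had an unadjusted p under 0.05, and their summed level was 1150 to 1610 CPM. The median of the same list was 0.25 in run 1 and 0.02 in run 2.

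Of 13 complement components tested, 9 were higher and 4 lower with a median of 0.17, and 2 had an interval within 2-fold. The median was 0.60 in run 1 and -0.13 in run 2. C1qa, a subunit of the C1q recognition molecule that starts the classical pathway, was at 6.896, 3.675, 6.36 and 10.8 CPM in run 1 and at 2.581, 4.763 and 4.188 CPM in run 2 of C3-/- mice. In Gne+/- C3-/- it was at 2.788, 7.187, 5.593 and 12.77 CPM in run 1 and at 5.973 and 4.213 CPM in run 2, overlapping the C3-/- mice in both runs. The fold changes of C1qa, C1qb and C1qc were 0.17, -0.74 and 0.33 (log2), with SE of 0.367, 0.766 and 0.421. C4b, which stands upstream of C3 in the classical pathway, moved in opposite directions by run, with 1.5 in run 1 and -3.35 in run 2 and a pooled value of 0.05 (log2, SE 0.683). In run 2 it was at 6.453, 4.846 and 10.15 CPM in C3-/- and at 0 and 1.326 CPM in Gne+/- C3-/-, and in run 1 it was at 0.7723 to 2.067 against 1.879 to 4.728 CPM. In DESeq2, the difference in the genotype effect on C4b between the runs had an adjusted p of 0.0249. It was called in edgeR only with no filter on low counts (adjusted p = 0.0396). In run 2 the Y-linked split described above coincided with the Gne genotype, so genotype and Y-linked level cannot be told apart there. Of 13 receptors and regulators, 9 were higher and 4 lower with a median of 0.18, and 7 had an interval within 2-fold. Cfi, the protease that inactivates C3b, had 1.15 (log2, SE 0.681, unadjusted p = 0.1, edgeR).

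None of the macroglial genes tested passed the threshold. Of 16 Mueller glia genes, 8 were higher and 8 lower with a median of 0.00, and 14 intervals lay within 2-fold. Glul, glutamine synthetase, had -0.02 (log2, interval -0.28 to 0.23). Hes1, the Notch effector that maintains Mueller glia and progenitors, had the smallest p after Gne. It was at 20.25, 14.09, 35.16 and 10.05 CPM in the C3-/- and at 9.455, 12.51, 7.69 and 3.952 CPM in the Gne+/- C3-/- mice of run 1. The run 2 levels of Hes1 were 32.82, 56.91 and 63.29 CPM in C3-/- and 28.15 and 21.61 CPM in Gne+/- C3-/-. The groups were apart in run 2, and in run 1 they overlapped at 10.05 to 12.51 CPM. The fold change was -1.18 (log2, SE 0.307, unadjusted p = 0.000519, adjusted p = 1, edgeR), with -1.23 and -1.04 in the runs. With no filter on low counts, its adjusted p was 0.00545 at the same fold change. In mice with intact C3, the effect on Hes1 was 0.16, and the difference between the backgrounds had an unadjusted p of 0.0029 (adjusted p = 1, edgeR). Gfap, the filament protein that rises in stressed Mueller glia, had -0.19 (log2, interval -1.03 to 0.64), and of 14 gliosis genes 5 were higher and 9 lower, from -1.22 to 2.84 with a median of 0.11 in run 1 and -0.65 in run 2.

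The 24 genes named next after Gne, 12 in each direction by the smallest unadjusted p among genes with a mean of at least 1 CPM, had adjusted p-values of 1. Their values are a description of the top of the list. Higher genes ran from 0.39 to 1.59 and lower genes from -2.58 to -0.35 on the log2 scale. In Gne+/- against wildtype, 13 of the 24 had the same sign, and 1, Pla2g3, had an unadjusted p under 0.05, with the opposite sign. Because the genes were chosen by a small p in 1 of the 2 backgrounds, differences from the other background are favoured by the choice, as is the same sign in both runs, and neither is read as a result about them.

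Of the lower genes, Hk2, the hexokinase that drives glycolysis in photoreceptors, was at 392.6, 329, 388.2 and 362.6 CPM in C3-/- and at 272.7, 313.8, 224.3 and 283.6 CPM in Gne+/- C3-/- mice of run 1. The run 2 levels of Hk2 were 510.7, 992.1 and 678.3 CPM in C3-/- and 591.8 and 528.6 CPM in Gne+/- C3-/-. The groups were apart in run 1 and overlapped in run 2. Its fold change was -0.40 (log2, SE 0.151, unadjusted p = 0.0125, edgeR), against 0.24 with intact C3. Rab18, a small GTPase of lipid droplets and the endoplasmic reticulum, was at 35.86, 34.3, 35.8 and 47.78 CPM in C3-/- and at 30.24, 32.27, 30.12 and 25.33 CPM in Gne+/- C3-/- mice of run 1. In run 2 it was at 35.22, 29.76 and 27.84 CPM in C3-/- and at 12.42 and 24.54 CPM in Gne+/- C3-/-, apart in both runs. Magef1, a MAGE family gene that the annotation used lists as a transcribed processed pseudogene, was at 33.68 to 43.02 against 20.75 to 30.24 CPM in run 1 and at 27.78 to 28.64 against 13.61 to 22.06 CPM in run 2, again apart in both. The remaining lower genes included Ak4, a mitochondrial adenylate kinase, at -0.61 (log2, SE 0.228), Ndst4, a heparan sulfate sulfotransferase, at -0.79 (log2, SE 0.275), and Hist1h1c, a linker histone, at -0.35 (log2, SE 0.139). Akna, a centrosomal microtubule organiser, had -0.10 in run 1 and -1.93 in run 2, with a pooled value of -0.93. Mea1 was listed at 0 in all 4 Gne+/- C3-/- and 2 of 4 C3-/- libraries of run 1, and 51.9% of its span is overlapped.

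Of the higher genes, Fam171a1, a transmembrane protein, was at 22.51, 27.56, 27.87 and 23.55 CPM in C3-/- and at 30.37, 33.79, 39.21 and 36.48 CPM in Gne+/- C3-/- mice of run 1. Fam171a1 levels in run 2 were 21.2, 24.26 and 21.35 CPM in C3-/- and 35.95 and 35.89 CPM in Gne+/- C3-/-. The groups were apart in both runs, as they were for Parp10, a mono-ADP-ribosyltransferase, at 2.625 to 4.732 CPM over the C3-/- and 4.243 to 9.362 CPM over the Gne+/- C3-/- libraries of both runs, ranges that meet only across runs. Over all genes tested, 44 (0.253%) did not overlap in either run in the same direction, 19 higher (0.109%) and 25 lower (0.144%). Pdpk1, the kinase that activates AKT, had 0.41 (log2, SE 0.143) and Supt16, a subunit of the histone chaperone FACT, had 0.39 (log2, SE 0.145). Pla2g3, a secreted phospholipase, had 1.46 (log2, SE 0.450) and -0.93 in the intact background (unadjusted p of the difference 0.000518, adjusted p = 1, edgeR), and 45.0% of its span is overlapped. Large2, a glycosyltransferase that extends the matriglycan of dystroglycan, had 1.59 (log2, SE 0.602) with Gne+/- C3-/- levels of 0.5914 to 8.504 CPM.

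**Figure D4:**
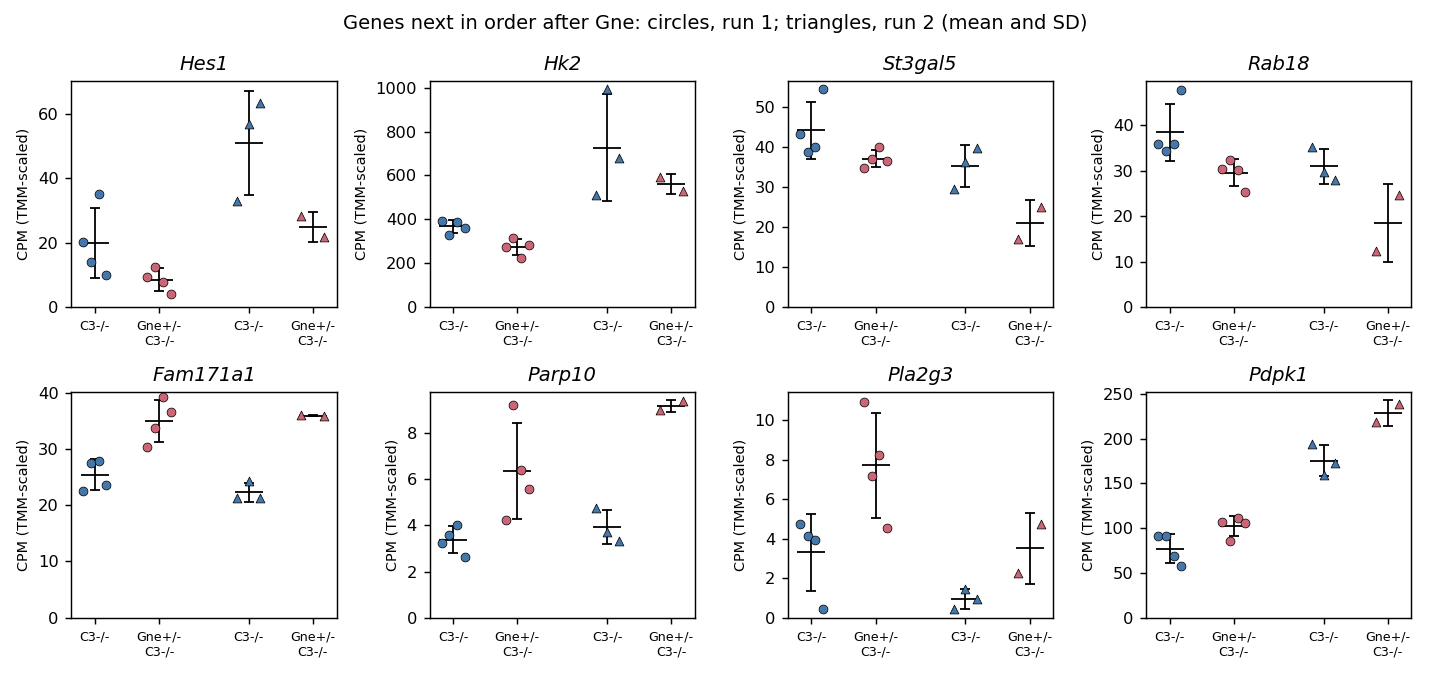
CPM in each library for 8 of the 24 named genes, with the mean and SD of each group and run as bars (circles run 1, triangles run 2). Fam171a1 and Rab18 are apart in both runs, while Hes1 overlaps at 10.05 to 12.51 CPM in run 1 and Hk2 overlaps in run 2.

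Fold changes in the 2 runs were compared gene by gene. Across all genes tested, 49.7% had the same sign in both runs, and Pearson's r of the 2 sets of fold changes was -0.0146, and -0.0769 over genes with at least 10 CPM. These are descriptions across genes, which are not independent replicates. Run 1 alone called 1 gene (0.00574%), Gne. Run 2 alone called 5 genes (0.0287%): Gne, Kdm5d, Eif2s3y, Ddx3y and Gm29650. Kdm5d, Eif2s3y and Ddx3y are Y-linked and follow the 0 of 3 against 2 of 2 split of that run. Gm29650 had a fold change of 10.84 (log2), within the 8.71 to 11.67 of those Y-linked genes. The test of a difference in the Gne effect between runs called 0 genes in edgeR (737 at an unadjusted p under 0.05, 4.23%), 20 in DESeq2 (0.115%) and 7 in limma-voom (0.0402%). Kdm6a and Eif2s3x, X-linked genes that escape inactivation, and the Y-linked Kdm5d and Ddx3y were in both of these lists. The DESeq2 calls also held C4b and H2-Ab1, a class II antigen presentation gene (adjusted p = 0.0284). The test of a run difference had no term for the Y-linked level, which coincided with the Gne genotype in run 2. Genotype and Y-linked level therefore cannot be told apart in that run. In the comparison over both runs with the Y-linked level as a term, Gne remained the only call, at -1.62.

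**Figure D5:**
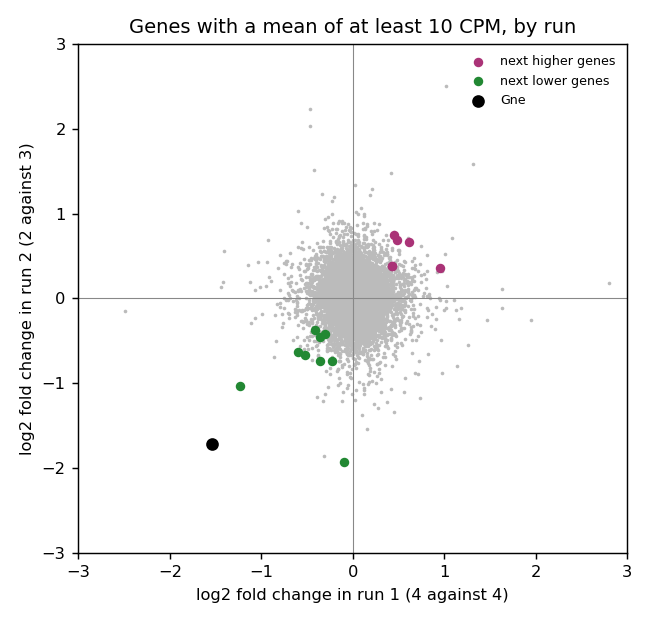
Log2 fold change in run 1 (x axis, 4 against 4) and in run 2 (y axis, 2 against 3) for the 9344 genes with a mean of at least 10 CPM, with axes limited to 3 in size. Pearson's r is -0.0769, Gne lies at -1.54 and -1.71, and the named genes lie in the quadrants of equal sign, which their choice by a small pooled p favours.

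The effect of Gne heterozygosity was also set against that in mice with intact C3, which share no library with the comparison above. Both effects came from the same fit of all 27 libraries, with a shared run term and estimate of the spread. With intact C3, too, 1 gene passed the threshold (0.00574%), Gne, and 1003 genes (5.76%) had an unadjusted p under 0.05. The test of the difference between the 2 backgrounds called 0 genes in edgeR, DESeq2 and limma-voom, with 554 (3.18%) at an unadjusted p under 0.05 in edgeR. That test had no term for the Y-linked level, which was not balanced alike in the 2 backgrounds. The 4 Y-linked genes had a median log2 fold change of 2.23 with intact C3 and -0.41 without it. Across genes with at least 10 CPM, Pearson's r of the 2 sets of fold changes was 0.0382, a description across genes. Homeostatic microglia genes had a median of 0.38 with intact C3 and 0.39 without it, and complement components had -0.01 and 0.17.

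Several lists of other cell types and processes were tested for their members. Lens genes, markers of a neighbouring tissue of the eye, were higher for 11 of 12 tested, with a median of 1.06 and 0 intervals within 2-fold. Their summed level ran from 82.8 to 269 CPM in C3-/- and from 95.4 to 326 CPM in Gne+/- C3-/- mice of run 1, and from 48.0 to 88.7 against 41.6 to 138 CPM in run 2, so the groups overlapped. Crygb, a lens crystallin at a mean of 0.656 CPM, had an unadjusted p of 0.00167 (edgeR, adjusted p = 1). The lens median was 3.34 in the intact background and -0.02 in limma-voom for the comparison described here. Pigment epithelium genes were higher for 10 of 16 with a median of 0.26, among them Rgr, an opsin of that layer, at 0.62 (log2, SE 0.283, unadjusted p = 0.037, edgeR), and fibroblast genes for 10 of 13 with a median of 0.33. The part of lens, pigment epithelium and scleral RNA in the other results was not tested. Immediate early genes, which respond to handling and light within minutes, were lower for 15 of 16, with a median of -0.38 and 0 members at an unadjusted p under 0.05. Their median was -0.60 in run 1 and -0.09 in run 2, and their summed level was 434 to 772 against 299 to 574 CPM in run 1 and 298 to 338 against 320 to 322 CPM in run 2.

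The stress, apoptosis and antigen presentation lists each held at most 1 member at an unadjusted p under 0.05. In lists of 12 to 18 genes tested, 1 member is already a larger share than the 1.35% of all genes tested. Gclm, the modifier subunit of the glutathione-synthesising ligase, had -0.63 (log2, SE 0.254, unadjusted p = 0.0184, edgeR) among 18 antioxidant genes with a median of 0.02. Pmaip1, a pro-apoptotic BH3-only protein, had -2.74 (log2, SE 1.23) at a mean of 1.35 CPM among 15 apoptosis genes with a median of -0.04. Tapbp, which loads peptides onto class I molecules, had 0.46 (log2, SE 0.209, unadjusted p = 0.0334, edgeR) among 12 antigen presentation genes with a median of -0.04. Of 16 genes of the unfolded protein response, 4 were higher and 12 lower with a median of -0.06, and of 27 nuclear genes of oxidative phosphorylation 15 were higher and 12 lower with a median of 0.02. Among the remaining cell type lists, endothelial genes (5 of 13 higher, median -0.08), pericyte and smooth muscle genes (7 of 10, median 0.14), erythrocyte genes (2 of 5, median -0.07) and T and B cell genes (2 of 4, median -0.03) held 0 members at an unadjusted p under 0.05. Retinal astrocyte genes were higher for 4 of 7 with a median of 0.01, and Pax2, an astrocyte homeobox factor at a mean of 0.710 CPM, had -3.14 (log2, SE 1.42). Skeletal muscle genes were higher for 3 of 6 with a median of -0.03, and Myl1, a myosin light chain, had 1.72 (log2, SE 0.769). Cytokine and NF-kB genes were higher for 6 of 9 with a median of 0.11, and Icam1, an adhesion molecule at a mean of 0.410 CPM, had -3.71 (log2, SE 1.49). Interferon response genes were higher for 5 of 15 with a median of -0.09, circadian clock genes for 9 of 16 with a median of 0.04, and mitochondrially encoded genes for 4 of 8 with a median of 0.02, with 0 members at an unadjusted p under 0.05. Another 5 of the 13 listed mitochondrial genes, among them mt-Co2 and mt-Co3, were at 0 and not tested. At most 21.1% of the span of these genes is overlapped, and the reason for their 0 counts was not tested. None of the 40 lists held a member past the adjusted threshold other than Gne.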

How the data were processed

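The values are raw counts of reads per gene that the authors deposited, made with STAR 2.7.3a and featureCounts from Subread 2.0.0 on GRCm38 per the submitters' processing notes. The deposited file headers name featureCounts 2.0.3 and Ensembl release 101, and reads on spans shared by several genes were not counted, so overlapped genes are underestimated or at 0. Strand was not used, so reads of a gene and an antisense partner cannot be told apart. Of 55487 gene identifiers, 55141 matched a symbol.

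All 27 libraries were fitted together in edgeR 4.0.16 (R 4.3.3; TMM scaling, filterByExpr by group with a minimum count of 10, robust quasi-likelihood fit, 22 residual degrees of freedom) with terms for genotype group and sequencing run. The contrast was Gne+/- C3-/- minus C3-/-. The adjusted p (Benjamini-Hochberg over 17409 genes) had a threshold of 0.05, and CPM values are TMM-scaled. Tests are two-sided, and intervals are 95% intervals of the fit. The scripts were tested on simulated data. DESeq2 1.42.0 and limma 3.58.1 were alternatives. No step that pairs mice was used. Same-numbered mice of the 2 groups had correlations of deviations from -0.221 to -0.082. Deviations within so few libraries are tied to each other, so these values cannot decide whether the numbers pair. Libraries of one group and run differed beyond counting noise (lowest chi-square per degree of freedom 9.77 over 16 pairs), and each is labelled as a separate mouse.

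The groups, members and the 40 gene lists were chosen with earlier results of these data known. Named genes were Gne, C3, genes past the threshold, the 12 higher and 12 lower genes with the smallest unadjusted p (mean CPM of at least 1, no provisional or pseudogene symbols), list members with an unadjusted p under 0.05 or among the 4 smallest of their list, and 26 fixed genes. Npl, St3gal4, St3gal6, Kif24 and the sex-linked and H2-Ab1 calls of the run comparison were chosen after their values were seen. Some of the fixed genes are not reported here.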

Additional observations from a re-analysis of the deposited data

Results flagged for a closer look

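Each level in CPM is given as measured, while high and low refer to the level relative to the mean of its run. In 104 groups of libraries checked for a single library far from the rest, after removing the run difference, 13 such libraries were found. Chance gives about 1 in 20. Among the genes described most closely, C3-/- mouse 5 was the highest C3-/- library for Gne (136 CPM) and for Magef1 (43.0 CPM), and C3-/- mouse 2 was the lowest for Supt16 (28.0 CPM). Gne+/- C3-/- mouse 7 was the lowest of its group relative to its run for St3gal5 (17.0 CPM), Mea1 (2.31 CPM, with run 1 mice of the group at 0) and Akna (1.54 CPM). In microglia and complement genes, C3-/- mouse 6 was lowest for C1qc (2.18 CPM), and Gne+/- C3-/- mouse 8 was highest for C3ar1 (3.28 CPM). Gne+/- C3-/- mouse 4 was lowest for Csf1r (4.91 CPM), and Gne+/- C3-/- mouse 3 was lowest for Aif1 (0 CPM). Gne+/- C3-/- mouse 8 was lowest for Gfap (0.975 CPM), and mouse 4 of that group was lowest relative to its run for Arr3 (668 CPM). Nans had reads in C3-/- mouse 5 (0.357 CPM) and was listed at 0 in the other 12 libraries. No explanation of these values was tested.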

How the results depend on the processing

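Gne was the only gene past the threshold, with a log2 fold change of -1.57 to -1.66 (1 gene each time), when each of the 13 libraries was left out in turn. Gne was also the only call for RLE and upper quartile scaling, no robust estimation, a stricter filter and the 13 libraries alone. So it was for run 1 alone (-1.54), the Y-linked level as a term, DESeq2 and limma-voom. Chosen after seeing the data, leaving out Gne+/- C3-/- mice 3 and 4 (-1.63) or mice 5 and 6 (-1.60) gave the same single call. With the mouse number as a replicate block, 1 gene was called and Gne was at -1.64 (adjusted p = 5.41e-07, edgeR), and no same-numbered mouse correlated best with its own number. The count was 0 with no run term, where Gne was at -1.47 (adjusted p = 1), 5 in run 2 alone and 9 with no filter on low counts (Gne, Hes1, Crygb, Cryba2, Crybb2, Crygs, Samd11, Gm19290 and Tmem181b-ps). With no filter, the difference between the backgrounds called 30 genes and that between runs 28, and the run difference called 20 genes in DESeq2 and 7 in limma-voom. The 30 included the Y-linked Kdm5d, Eif2s3y, Uty and Ddx3y and the crystallins Cryba2, Cryba4, Crybb2, Cryab and Crygs. The causes were not tested. Genes at an unadjusted p under 0.05 numbered 235, and from 103 (no run term) to 1158 (no filter) under the alternatives. No gene past the threshold changed sign. Of 1160 list medians under the alternatives, 105 had the other sign, 10 of them from a median over 0.1 in size: Siglec genes in run 1 (0.01) and run 2 (0.12), complement components in run 2 (-0.13), lens genes in limma-voom (-0.02), cytokine genes in limma-voom (-0.02) and without Gne+/- C3-/- replicate 3 (-0.01), and Y-linked genes in 4 settings (0.22 to 9.34). Intervals within 2-fold were counted for 7943 genes (run 1 alone) to 10449 (13 libraries alone), against 9775, under settings chosen after seeing the data. Most genes under 10 CPM had intervals that were not within a 2-fold change.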
